A study of Phyllostachys violascens with 18 samples.

Results

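The genes that make carotenoids and cleave them were followed in leaves of a bamboo and of its colour variant. Members were all genes of the deposited expression table whose description names phytoene, a carotene, lycopene, zeaxanthin, a carotenoid, violaxanthin, neoxanthin or 9-cis-epoxycarotenoid, which gave 49 of 42520 genes. They fell under 18 enzyme names, 15 of them with at least 2 genes, and lay on 23 scaffolds. The bamboo is Phyllostachys violascens, known for its edible shoots, and its variant ‘Flavistriatus’ was studied here for leaf colour. RNA came from leaves of the variant and of the typical plant, each at 3 stages named young, immature and mature, with 3 libraries per group and 18 in all. All plants grew in a greenhouse, and no plant age, treatment or further genotype is given for any group. Culms are given as the tissue in another label field, but every sample title speaks of leaves, which was taken as the tissue. Whether libraries of 1 group stem from different plants is not stated, so the tests rest on a spread between libraries that may be technical.

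Carotenoids are plastid pigments built from geranylgeranyl diphosphate. Phytoene synthase makes the colourless phytoene, desaturases and isomerases turn it into red lycopene, and a pair of cyclases split the pathway into a branch towards lutein and a branch towards beta-carotene and the xanthophylls zeaxanthin, violaxanthin and neoxanthin. In leaves these pigments sit with chlorophyll in the photosystems, where they gather light and discard its excess, and their cleavage gives abscisic acid, strigolactones and scent compounds.

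Of the 49 members, 44 had enough counts to be tested, among 37595 genes tested in all. The 5 that were left out were a lycopene beta-cyclase (PH02Gene35481), a carotene epsilon-monooxygenase (PH02Gene01609), a 9-cis-epoxycarotenoid dioxygenase (PH02Gene32841) and 2 genes for the isomerase D27 (PH02Gene44903 and PH02Gene25439), none above 1.33 FPKM in any library. FPKM is the deposited level of a gene scaled for its length and the library size. A mean of at least 10 FPKM over the 18 libraries was reached by 21 members, at least 1 FPKM by 35, and less than 1 FPKM by 14. A tested member was called when its edgeR adjusted p was under 0.05, and FPKM means carry an SD (±, n = 3). Log2 fold changes carry a standard error (±) worked back from the test statistic. Because 2 or more genes share most enzyme names and the counts are estimates, reads can be divided wrongly between close copies, and values of single copies are uncertain to that extent.

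Total counts were 30268130 to 58374889 per library. The 3 variant immature libraries were closer to each other than those of most groups, with a chi-square per degree of freedom of 11.3 to 12.2, against 99.7 to 131 in typical immature leaves, so they did not agree within sampling noise. The summed members stood at 621 ± 0.252 FPKM in those 3 libraries. Markers of green leaf cells (16 genes of the Rubisco small subunit and of chlorophyll a-b binding proteins, none at 0 in every library) took 0.186%, 0.104% and 0.136% of counts in variant young leaves, against 0.319%, 0.226% and 0.231% in typical young leaves, without overlap although no member was called at that stage. They took 0.272%, 0.271% and 0.280% in variant immature leaves, against 2.60%, 3.27% and 2.47% in typical immature leaves. In mature leaves they took 0.608%, 0.724% and 0.0978% in the variant, against 0.945%, 1.18% and 1.19% in the typical plant, so that variant mature replicate 3 stood far below the rest of its group. Meristem and stem markers (19 genes) took 0.118% to 0.123% in variant immature leaves, against 0.0696% to 0.0905% in typical immature leaves. The 100 most abundant genes took 7.89% to 7.97% of counts in variant immature leaves, against 20.8% to 23.0% in typical immature leaves. The part of these shares in the results was not tested, and in whole leaves fewer cells of a type and less RNA per cell cannot be told apart. On log2(FPKM + 1), the middle of all genes lay 0.23 higher in variant than in typical immature leaves and 0.22 higher in mature leaves. For the 21 members with a mean of at least 10 FPKM, the log2 ratio of mean FPKM lay above the tested log2 fold change, which is relative to the bulk of genes, by a median of 0.05 in young, 0.46 in immature and 0.33 in mature leaves.

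**Figure D1:**
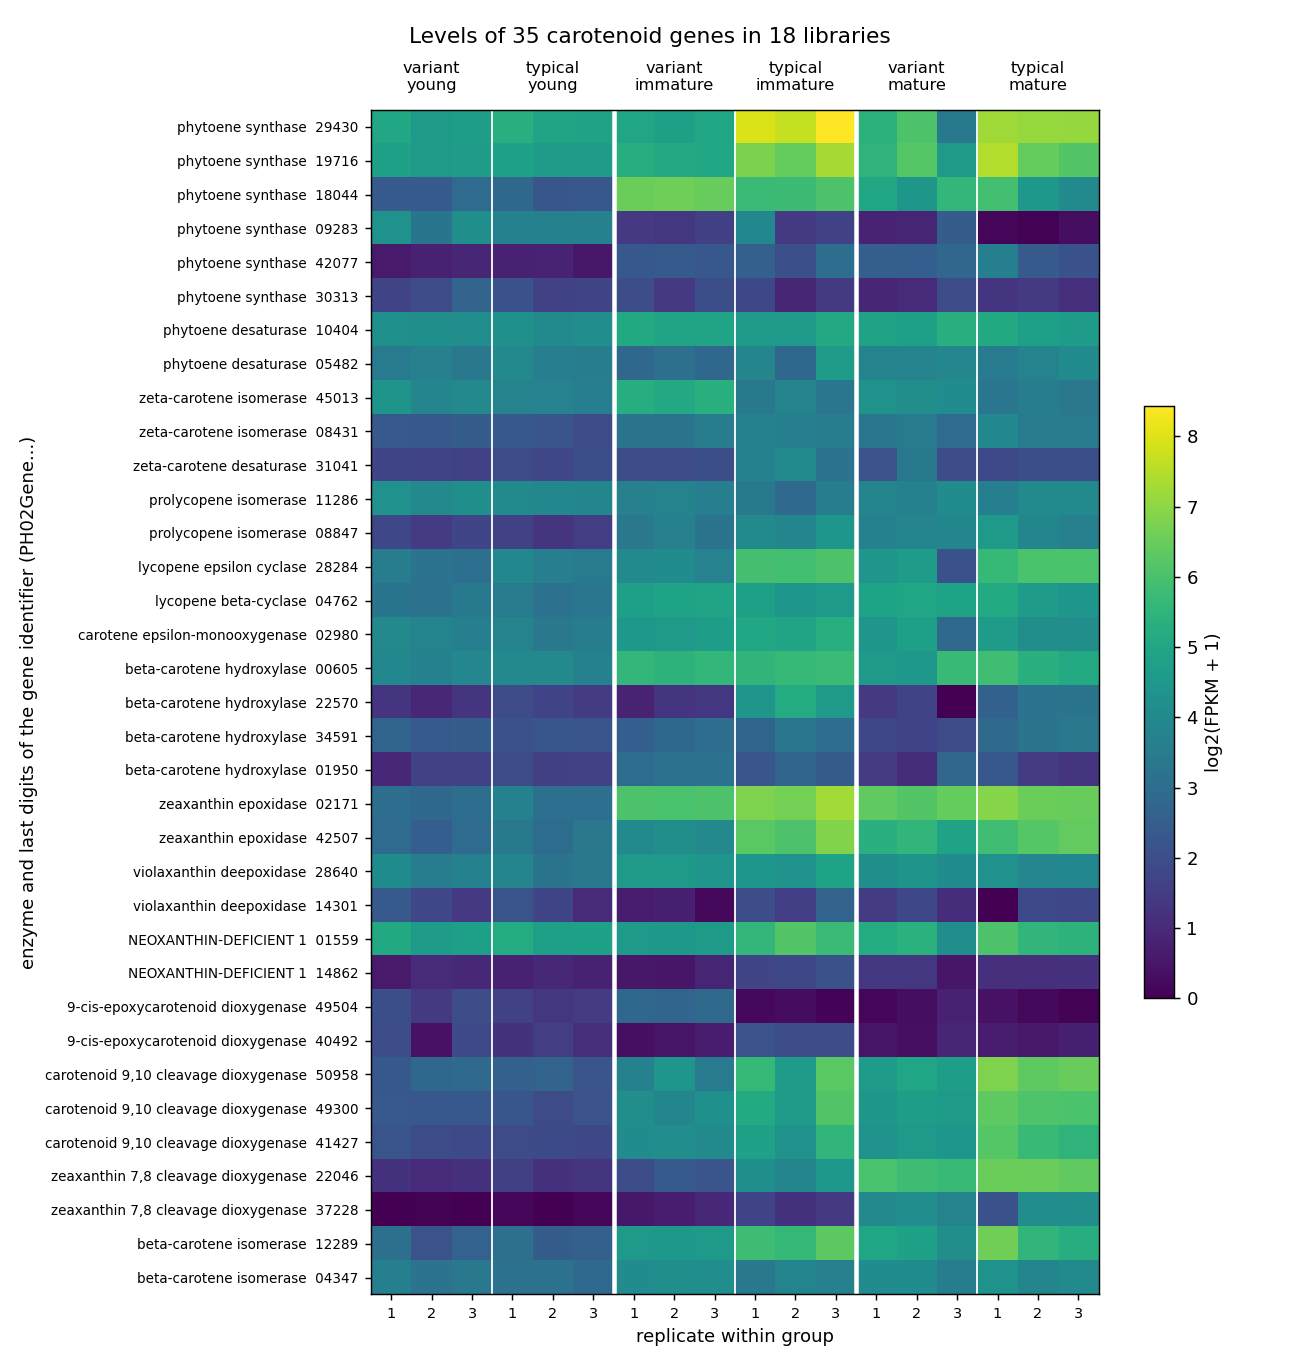
Level of the 35 members with a mean of at least 1 FPKM (rows, by enzyme) in each of the 18 libraries (columns, by group), as log2(FPKM + 1). Typical immature and mature leaves have the brightest cells. Among them are phytoene synthases PH02Gene29430 (at 253, 206 and 344 FPKM in typical immature leaves) and PH02Gene19716 and both zeaxanthin epoxidases.

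In young leaves none of the 44 tested members was called between the variant and the typical plant by edgeR, and 1 had an unadjusted edgeR p under 0.05. DESeq2 and limma also called 0 members. Over all genes 0.149% were called higher and 0.0213% lower in the variant at this stage. The median log2 fold change of the members was 0.06, against 0.00 for all genes tested. The summed level of the members was 291 ± 35.6 FPKM in variant young leaves and 287 ± 37.2 FPKM in typical young leaves.

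In immature leaves 24 of the 44 members were lower and 3 higher in the variant than in the typical plant. Over all genes 23.1% were lower and 21.7% higher, and the median log2 fold change was -1.20 for the members and -0.01 for all genes. In mature leaves 16 members were lower and 3 higher in the variant, against 9.65% lower and 14.9% higher over all genes, with a median of -0.48 for the members and 0.09 for all genes. The 15 members that were lower at both stages were 62.5% of those lower in immature and 93.75% of those lower in mature leaves. The same overlap was not counted over all genes, so it cannot be called particular to the members. Summed over the members, the level was 621 ± 0.252 FPKM in variant immature leaves and 1274 ± 272 FPKM in typical immature leaves, and 685 ± 72.4 FPKM in variant mature leaves and 1194 ± 198 FPKM in typical mature leaves. Without variant mature replicate 3, which stood apart, 29 members were called in immature and 17 in mature leaves. Calls over all genes then moved as well, from 16868 to 18562 in immature and from 9224 to 8652 in mature leaves.

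Calls of single members varied with the fit. Where summing near-alike libraries lowered the count of members called, fewer of all genes were called as well, so that loss was not one of the members alone. When libraries of a group that were nearly alike were summed, which left 1 variant immature library and 14 libraries in all, 13 members were called in immature leaves, 3 higher and 10 lower. These were PH02Gene29430, PH02Gene19716, PH02Gene45013, PH02Gene31041, PH02Gene02171, PH02Gene42507, PH02Gene01559, PH02Gene14862, PH02Gene49504, PH02Gene50958, PH02Gene49300, PH02Gene22046 and PH02Gene34618. No other immature call of a member held under that setting. With only the mature groups in the fit, 6 members were called in mature leaves, all lower, namely PH02Gene34591, PH02Gene42507, PH02Gene50958, PH02Gene49300, PH02Gene41427 and PH02Gene22046. Over all genes, that fit called 2641 in mature leaves, against 9224 in the fit over 18 libraries. On log2(FPKM + 1) with limma, the immature calls of PH02Gene00881, PH02Gene02980, PH02Gene08431, PH02Gene09283, PH02Gene34591 and PH02Gene37228 and the mature calls of PH02Gene00605, PH02Gene02171, PH02Gene08431 and PH02Gene09283 were lost, and D27 gene PH02Gene04347 was called higher in variant immature leaves. Without a filter on low values, limma split the immature calls into 5 higher and 18 lower.

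**Figure D2:**
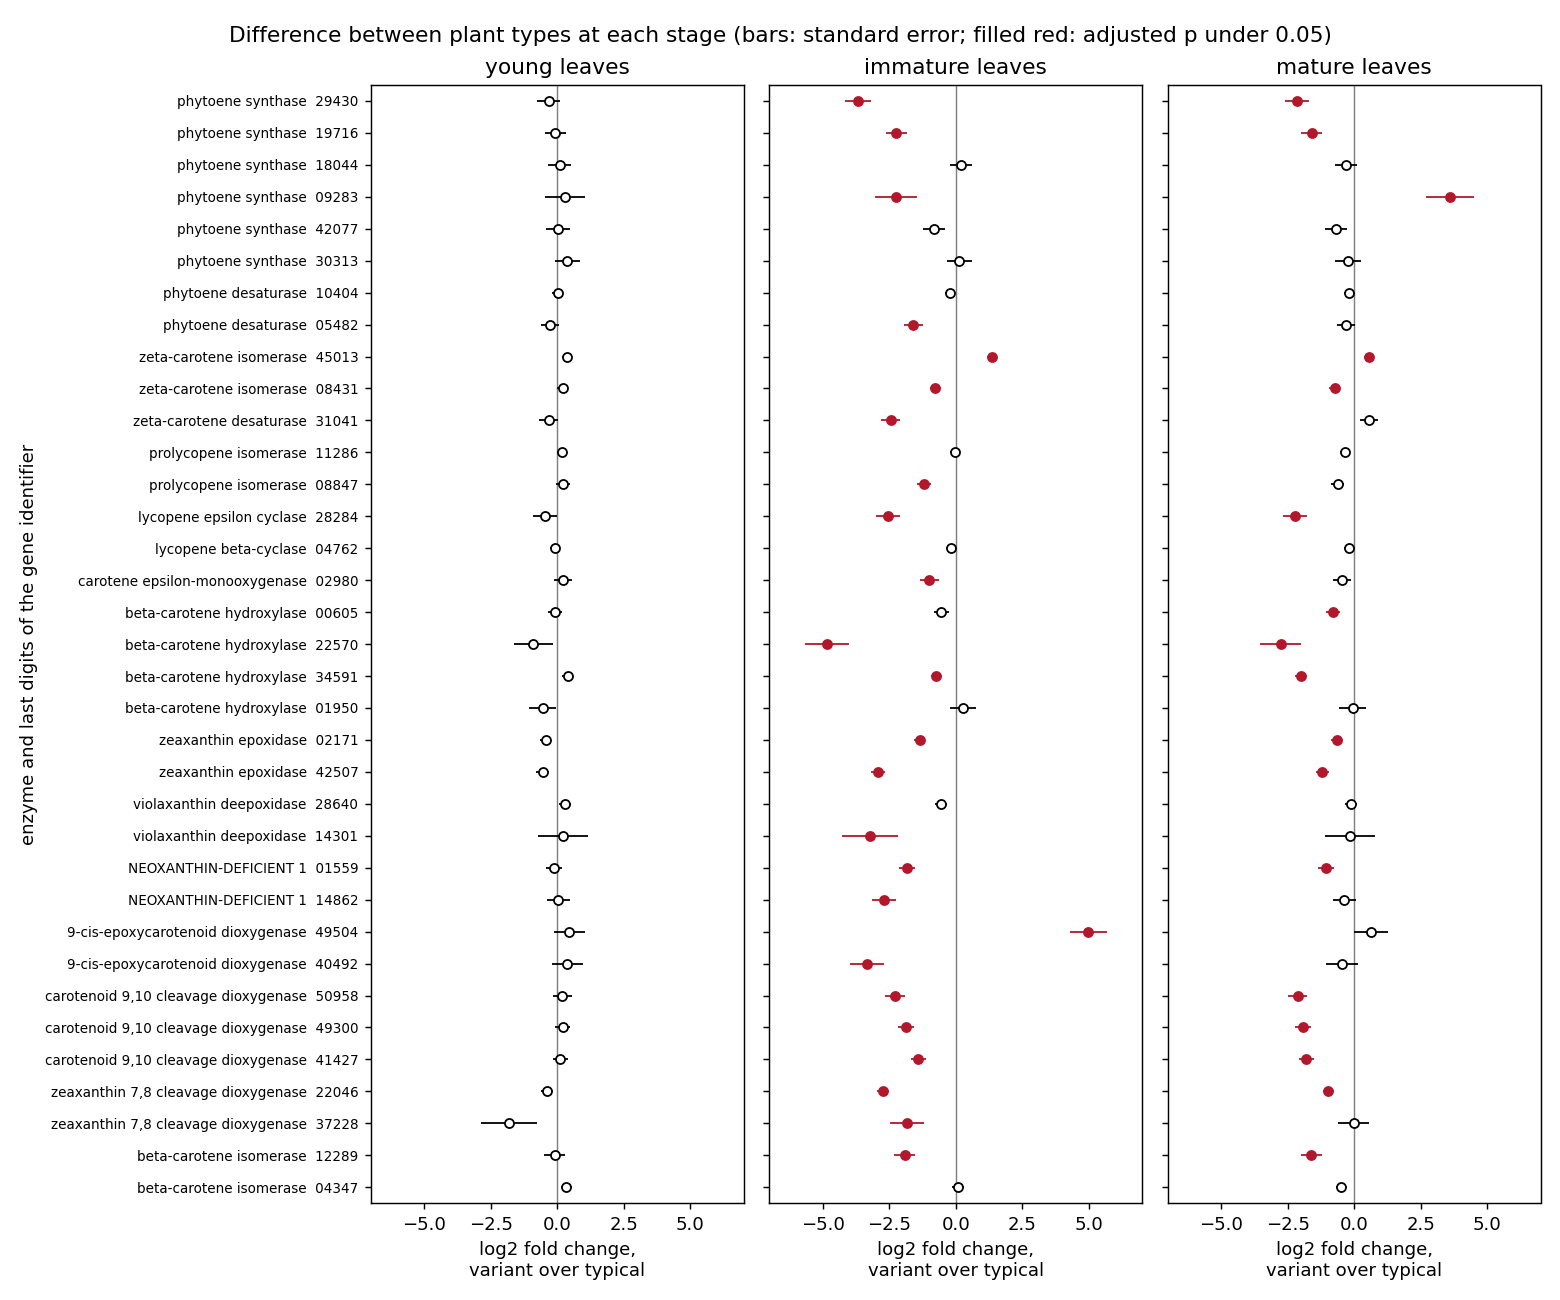
Log2 fold change of variant over typical leaves (horizontal axis) for the 35 members with a mean of at least 1 FPKM, at the young, immature and mature stage. Bars are standard errors and red points were called. No point is red in young leaves, and in immature leaves the red points lie left of 0 except for zeta-carotene isomerase PH02Gene45013 and the 9-cis-epoxycarotenoid dioxygenase PH02Gene49504.

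Phytoene synthase, the entry enzyme of the pathway, had 6 genes. Of these, 3 were lower in variant immature leaves, none was higher and 3 were not called, against 23.1% lower and 21.7% higher over all genes. The gene with the highest level, PH02Gene29430 (scaffold 8, 79261006 to 79263942, minus strand), had 29.8, 26.7 and 30.0 FPKM in variant immature leaves, against 253, 206 and 344 FPKM in typical immature leaves. Every variant library was far below every typical one (log2 fold change -3.67 ± 0.49, edgeR adjusted p = 3.62e-05). Its values in mature leaves were 41.6, 66.0 and 9.69 FPKM in the variant, against 147, 138 and 137 FPKM in the typical plant. The groups were again apart, with variant mature replicate 3 the lowest of its group (log2 fold change -2.16 ± 0.46, edgeR adjusted p = 0.00370). Without variant mature replicate 2 the log2 fold change was larger (log2 fold change -2.81, edgeR adjusted p = 0.00105). In young leaves it had 31.5, 21.9 and 25.4 FPKM in the variant and 38.1, 29.2 and 28.1 FPKM in the typical plant, and was not called (log2 fold change -0.32 ± 0.44, edgeR adjusted p = 1.00).

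A further copy, PH02Gene19716 (scaffold 6, 74851127 to 74854897, minus strand), carries the same description. Its level was 37.1, 33.3 and 32.4 FPKM in variant immature leaves, against 107, 86.1 and 158 FPKM in typical immature leaves. All 3 variant libraries lay below the typical ones (log2 fold change -2.23 ± 0.40, edgeR adjusted p = 4.52e-04). At the mature stage the gene had 43.9, 72.9 and 23.4 FPKM in the variant, against 176, 86.8 and 71.6 FPKM in the typical plant, with overlap between the groups (log2 fold change -1.59 ± 0.40, edgeR adjusted p = 0.00928). Without typical mature replicate 1 that mature call was lost (log2 fold change -1.02, edgeR adjusted p = 0.0530).

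PH02Gene18044, described as phytoene synthase 2-like, did not share this difference. Its level was 91.1, 95.2 and 88.5 FPKM in variant immature leaves, against 52.9, 54.2 and 66.7 FPKM in typical immature leaves. The variant libraries were higher on the FPKM scale and did not overlap the typical ones, but relative to the bulk of genes the copy was not called (log2 fold change 0.21 ± 0.42, edgeR adjusted p = 0.725). It held 56.2% ± 2.05 of the summed phytoene synthase FPKM in variant immature leaves and 13.02% ± 2.07 in typical immature leaves. PH02Gene29430 held 17.7% ± 1.18 in variant immature leaves and 58.7% ± 0.626 in typical immature leaves. The most abundant copy therefore differed between the plant types at this stage, as the plot of phytoene synthase by copy shows.

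PH02Gene09283, also phytoene synthase 2-like, moved in opposite directions at the older stages. It had 1.62, 1.56 and 2.02 FPKM in variant immature leaves, against 14.4, 1.73 and 2.12 FPKM in typical immature leaves. Only typical immature replicate 1 was high (log2 fold change -2.24 ± 0.78, edgeR adjusted p = 0.0293), and without it the call was lost (log2 fold change -0.63, edgeR adjusted p = 0.465). It was also lost without any 1 variant immature library, with edgeR adjusted p of 0.0643 to 0.465 over the 4 libraries. Mature leaves gave 0.786, 0.835 and 4.63 FPKM in the variant, against 0.0994, 0.0466 and 0.248 FPKM in the typical plant. The variant was higher (log2 fold change 3.61 ± 0.89, edgeR adjusted p = 0.00912), with replicate 3 far above the others, and the call was lost without that library (log2 fold change 2.30, edgeR adjusted p = 0.0536). The other 2 copies, PH02Gene42077 and PH02Gene30313, were not called between the plant types, with log2 fold changes in immature leaves of -0.82 ± 0.43 and 0.14 ± 0.47.

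Summed over the 6 genes, phytoene synthase stood at 163 ± 3.41 FPKM in variant immature leaves and 456 ± 115 FPKM in typical immature leaves. In mature leaves the sum was 128 ± 36.7 FPKM in the variant and 293 ± 90.4 FPKM in the typical plant. Relative to phytoene desaturase, the next enzyme, the ratio of summed FPKM was 4.204, 4.42 and 4.55 in variant immature leaves, against 12.4, 12.2 and 10.2 in typical immature leaves. The ratio was lower in every variant library of that stage.

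**Figure D3:**
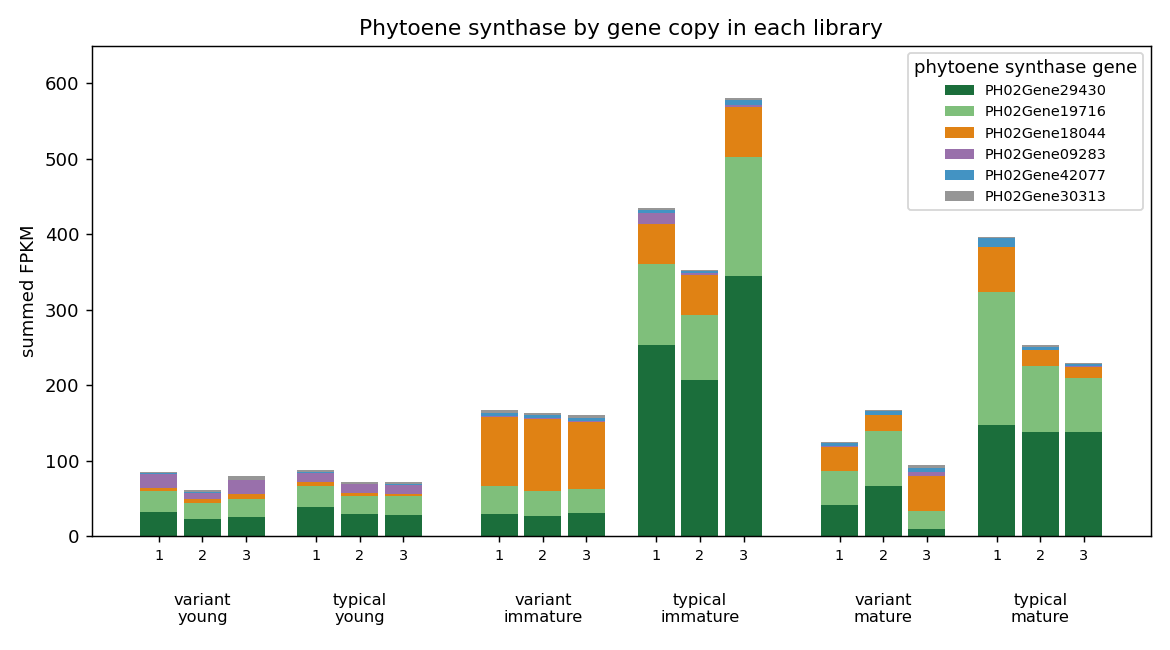
Summed FPKM of the 6 phytoene synthase genes in each library, stacked by gene. The 3 variant immature libraries are lower and mostly orange (PH02Gene18044), while typical immature leaves are tallest and mostly dark green (PH02Gene29430).

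From phytoene to lycopene, 9 members were tested, and 4 were lower and 1 was higher in variant immature leaves. Over all genes 23.1% were lower and 21.7% higher. The median log2 fold change of these 9 was -0.22, against -1.20 for all members. Phytoene desaturase adds the first double bonds. Its main gene PH02Gene10404 (scaffold 21, 103270538 to 103282420, minus strand) had 33.5, 29.2 and 29.1 FPKM in variant immature leaves, against 22.0, 22.8 and 32.9 FPKM in typical immature leaves. These values overlapped and the gene was not called (log2 fold change -0.22 ± 0.20, edgeR adjusted p = 0.400). The other desaturase gene, PH02Gene05482, had 6.15, 7.59 and 6.05 FPKM in variant immature leaves, against 13.2, 6.04 and 24.0 FPKM in typical immature leaves. It was lower in the variant (log2 fold change -1.59 ± 0.35, edgeR adjusted p = 0.00176), although typical immature replicate 2 fell below all 3 variant libraries in FPKM. Without typical immature replicate 3, the highest, the difference was smaller and still called (log2 fold change -0.97, edgeR adjusted p = 0.0104).

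Zeta-carotene isomerase, which straightens the intermediate between the desaturases, had 2 genes that moved in opposite directions. PH02Gene45013 (scaffold 12, 26342921 to 26350018, minus strand) was at 37.0, 32.9 and 40.1 FPKM in variant immature leaves, against 9.62, 12.8 and 8.87 FPKM in typical immature leaves. All variant libraries were well above the highest typical one (log2 fold change 1.36 ± 0.18, edgeR adjusted p = 2.93e-05). PH02Gene08431 was at 8.48, 8.40 and 10.6 FPKM in variant immature leaves, against 12.2, 11.3 and 10.9 FPKM in typical immature leaves. Here the variant was the lower (log2 fold change -0.78 ± 0.21, edgeR adjusted p = 0.00687), without overlap. PH02Gene45013 thus held 80.1% ± 1.16 of the isomerase FPKM in variant immature leaves and 47.3% ± 4.85 in typical immature leaves.

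Mature leaves showed the same directions for both isomerase genes. PH02Gene45013 was at 19.0, 17.03 and 16.3 FPKM in variant mature leaves, against 8.85, 10.8 and 9.08 FPKM in typical mature leaves (log2 fold change 0.55 ± 0.17, edgeR adjusted p = 0.0326). That call was lost without variant mature replicate 1 or 2 or any 1 typical mature library (edgeR adjusted p of 0.0522 to 0.105). PH02Gene08431 was at 8.91, 10.4 and 6.74 FPKM in variant mature leaves, against 14.2, 10.2 and 10.2 FPKM in typical mature leaves (log2 fold change -0.74 ± 0.21, edgeR adjusted p = 0.0180), a call lost without variant mature replicate 3 or typical mature replicate 1 (edgeR adjusted p of 0.0633 to 0.0857).

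Zeta-carotene desaturase, which completes the desaturation, had a single gene, PH02Gene31041 (scaffold 4, 46374767 to 46381312, minus strand). In the variant it had 2.42, 2.24 and 2.19 FPKM in young, 3.01, 2.78 and 3.06 FPKM in immature and 3.51, 9.53 and 2.95 FPKM in mature leaves. In the typical plant it had 2.76, 2.44 and 3.12 FPKM in young, 12.1, 15.05 and 8.27 FPKM in immature and 2.60, 3.11 and 3.11 FPKM in mature leaves. In the variant only mature replicate 2 was high, and the typical plant had a comparable level at the immature stage alone. The difference between plant types was called in immature (log2 fold change -2.45 ± 0.36, edgeR adjusted p = 9.37e-05) and not in mature leaves (log2 fold change 0.56 ± 0.35, edgeR adjusted p = 0.261).

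Prolycopene isomerase, which turns prolycopene into all-trans lycopene, had 4 genes. PH02Gene11286 (scaffold 1, 21585132 to 21590062, minus strand) had 11.8, 12.5 and 11.2 FPKM in variant immature leaves, against 9.59, 6.37 and 10.8 FPKM in typical immature leaves. It was not called (log2 fold change -0.04 ± 0.18, edgeR adjusted p = 0.874). PH02Gene08847 had 9.33, 11.7 and 8.48 FPKM in variant immature leaves, against 15.5, 13.6 and 20.6 FPKM in typical immature leaves. The variant was lower in all 3 libraries (log2 fold change -1.20 ± 0.26, edgeR adjusted p = 0.00172), whereas in mature leaves the gene was not called (log2 fold change -0.62 ± 0.26, edgeR adjusted p = 0.0905). The other 2 genes stayed under 1 FPKM in every library and were not called.

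At the branch point the cyclases differed. Lycopene epsilon cyclase, which opens the branch to lutein, had 1 gene, PH02Gene28284 (scaffold 14, 34417034 to 34423425, plus strand). It was at 15.3, 15.9 and 12.5 FPKM in variant immature leaves, against 60.2, 58.5 and 67.1 FPKM in typical immature leaves. Every variant library was far below every typical one (log2 fold change -2.54 ± 0.47, edgeR adjusted p = 4.92e-04). In mature leaves it had 20.0, 23.6 and 3.40 FPKM in the variant, against 49.4, 64.3 and 65.7 FPKM in the typical plant, again without overlap and lowest in variant replicate 3 (log2 fold change -2.23 ± 0.46, edgeR adjusted p = 0.00316). In young leaves it was at 10.9, 8.30 and 7.49 FPKM in the variant and 14.3, 11.3 and 10.3 FPKM in the typical plant, and was not called.

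Lycopene beta-cyclase, which leads to beta-carotene, was not called between the plant types at any stage. Its main gene PH02Gene04762 (scaffold 17, 88569113 to 88570563, plus strand) had 25.9, 28.5 and 29.1 FPKM in variant immature leaves, against 26.7, 20.5 and 21.9 FPKM in typical immature leaves (log2 fold change -0.18 ± 0.19, edgeR adjusted p = 0.468). Its values in mature leaves were 28.8, 30.4 and 28.5 FPKM in the variant, against 34.6, 23.9 and 20.5 FPKM in the typical plant (log2 fold change -0.19 ± 0.19, edgeR adjusted p = 0.513). The ratio of epsilon to beta cyclase, by summed FPKM, was 0.590, 0.557 and 0.429 in variant immature leaves, against 2.25, 2.84 and 3.06 in typical immature leaves. In mature leaves the ratio was 0.694, 0.774 and 0.119 in the variant, against 1.42, 2.69 and 3.21 in the typical plant. The groups did not overlap at either stage, while the young ratios of 1.24, 1.02 and 0.766 in the variant and 1.40, 1.42 and 1.16 in the typical plant did.

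**Figure D4:**
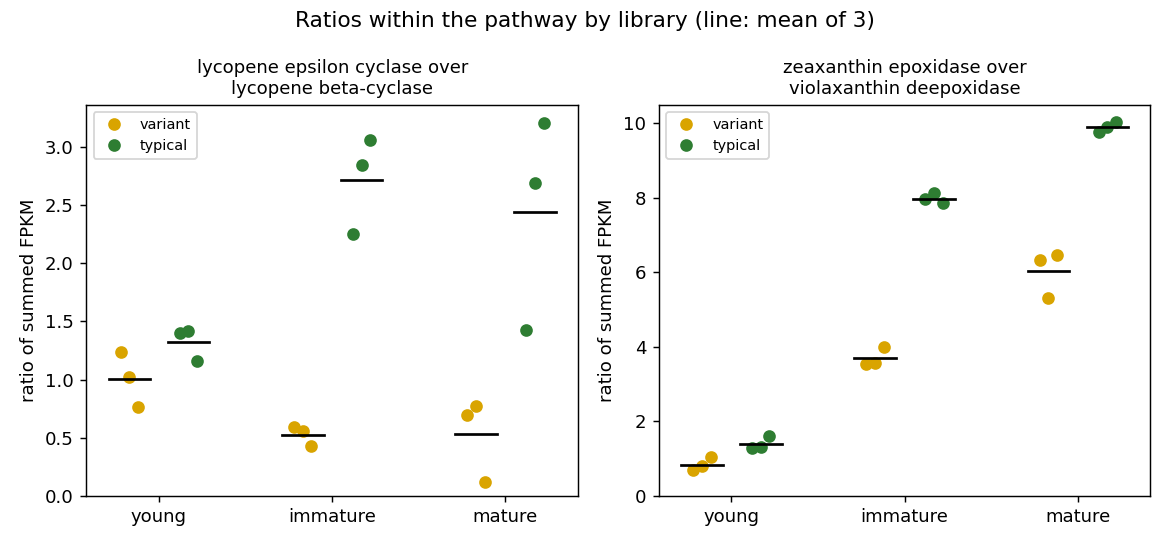
Ratio of summed FPKM of lycopene epsilon cyclase over lycopene beta-cyclase (left) and of zeaxanthin epoxidase over violaxanthin deepoxidase (right), with a point per library and a line at the mean of 3, for variant and typical leaves at each stage. All variant points lie below all typical points in immature and mature leaves in both panels, and in young leaves in the right panel. The young points of the left panel overlap, and the ratios were not tested.

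The hydroxylases turn carotenes into xanthophylls. Carotene epsilon-monooxygenase, the P450 enzyme of the lutein branch, had PH02Gene02980 (scaffold 5, 52086527 to 52091760, plus strand) at 21.4, 22.6 and 25.4 FPKM in variant immature leaves, against 32.2, 29.3 and 39.3 FPKM in typical immature leaves. The variant was lower without overlap (log2 fold change -0.99 ± 0.35, edgeR adjusted p = 0.0323), but the call was lost without any 1 of the variant immature libraries or typical immature replicates 1 or 3 (edgeR adjusted p of 0.0515 to 0.103). At the mature stage the gene had 19.9, 26.0 and 6.52 FPKM in the variant, against 24.0, 16.9 and 16.9 FPKM in the typical plant, and was not called.

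Beta-carotene hydroxylase, which makes zeaxanthin, had 5 genes, of which 3 were lower in variant immature and 4 in variant mature leaves. Over all genes 23.1% and 9.65% were lower at these stages. PH02Gene00605 (scaffold 24, 58260833 to 58263101, plus strand) had the highest level, with 47.5, 43.1 and 46.9 FPKM in variant immature leaves, against 44.8, 48.7 and 52.8 FPKM in typical immature leaves. It was not called there (log2 fold change -0.54 ± 0.27, edgeR adjusted p = 0.116). Mature leaves gave 22.7, 21.5 and 51.6 FPKM in the variant, against 56.0, 40.3 and 34.5 FPKM in the typical plant, where variant replicate 3 was as high as the typical libraries. Its mature call (log2 fold change -0.80 ± 0.27, edgeR adjusted p = 0.0448) was lost when any 1 of 16 libraries was left out (edgeR adjusted p of 0.0502 to 0.195).

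PH02Gene22570 had the widest difference among the hydroxylases. It was at 0.755, 1.41 and 1.58 FPKM in variant immature leaves, against 20.0, 35.4 and 22.6 FPKM in typical immature leaves, so that typical leaves exceeded variant ones in every library (log2 fold change -4.82 ± 0.83, edgeR adjusted p = 2.94e-04). In mature leaves it had 1.62, 2.25 and 0 FPKM in the variant, against 5.09, 8.33 and 8.42 FPKM in the typical plant, with variant replicate 3 listed at 0 (log2 fold change -2.76 ± 0.76, edgeR adjusted p = 0.0163). Without variant mature replicate 2 the mature log2 fold change was larger (log2 fold change -3.45, edgeR adjusted p = 0.0123). PH02Gene34591 was at 4.70, 6.17 and 7.06 FPKM in variant immature leaves, against 5.55, 8.94 and 7.33 FPKM in typical immature leaves, with overlap (log2 fold change -0.74 ± 0.21, edgeR adjusted p = 0.00926). Its values in mature leaves were 2.53, 2.25 and 2.86 FPKM in the variant, against 6.54, 8.39 and 9.47 FPKM in the typical plant, all variant libraries below all typical ones (log2 fold change -1.99 ± 0.21, edgeR adjusted p = 4.46e-05).

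Of the remaining hydroxylase genes, PH02Gene00881 stayed between 0.196 and 1.58 FPKM. It was lower in variant immature (log2 fold change -1.20 ± 0.43, edgeR adjusted p = 0.0344) and in variant mature leaves (log2 fold change -1.81 ± 0.44, edgeR adjusted p = 0.00816). Its immature call was lost without variant replicates 1 or 3 or typical replicates 2 or 3 of that stage (edgeR adjusted p of 0.0756 to 0.128). PH02Gene01950 was not called, at 7.69 ± 0.620 FPKM in variant immature leaves and 4.65 ± 1.05 FPKM in typical immature leaves.

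In the xanthophyll cycle, zeaxanthin epoxidase makes violaxanthin and violaxanthin deepoxidase turns it back in strong light. Both zeaxanthin epoxidase genes were lower in the variant at both older stages, against 23.1% of all genes in immature and 9.65% in mature leaves. PH02Gene02171 (scaffold 24, 39651035 to 39658260, plus strand) had 66.1, 63.2 and 65.9 FPKM in variant immature leaves, against 111, 102 and 153 FPKM in typical immature leaves. The variant libraries were lower without overlap (log2 fold change -1.36 ± 0.22, edgeR adjusted p = 2.04e-04). At the mature stage the gene had 81.3, 72.0 and 84.97 FPKM in the variant, against 119.6, 91.2 and 87.0 FPKM in the typical plant (log2 fold change -0.66 ± 0.22, edgeR adjusted p = 0.0407), a call lost when any 1 of 9 libraries was left out, among them all 3 variant mature libraries and typical mature replicates 1 and 2 (edgeR adjusted p of 0.0529 to 0.165).

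PH02Gene42507, the other zeaxanthin epoxidase, had 15.3, 16.9 and 14.5 FPKM in variant immature leaves, against 76.3, 67.2 and 114 FPKM in typical immature leaves. The typical libraries were far higher (log2 fold change -2.92 ± 0.26, edgeR adjusted p = 1.15e-06). Mature leaves gave 40.0, 46.3 and 27.7 FPKM in the variant, against 56.6, 72.7 and 83.1 FPKM in the typical plant, still without overlap (log2 fold change -1.20 ± 0.24, edgeR adjusted p = 0.00263). Within the variant it was higher in mature than in immature leaves (log2 fold change 1.34 ± 0.24, edgeR adjusted p = 0.00120), a call lost when near-alike libraries were summed (edgeR adjusted p = 0.119).

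Violaxanthin deepoxidase PH02Gene28640 (scaffold 24, 25959126 to 25961948, minus strand) had 22.3, 21.9 and 20.0 FPKM in variant immature leaves, against 20.5, 18.9 and 28.7 FPKM in typical immature leaves. It was not called there (log2 fold change -0.54 ± 0.23, edgeR adjusted p = 0.0644) or in mature leaves (log2 fold change -0.13 ± 0.23, edgeR adjusted p = 0.733). The second gene, PH02Gene14301, lies between positions 48384241 and 48384691 of scaffold 23, a short model. It had 0.609, 0.686 and 0.130 FPKM in variant immature leaves, against 2.95, 1.93 and 5.37 FPKM in typical immature leaves. It was lower in the variant (log2 fold change -3.23 ± 1.04, edgeR adjusted p = 0.0203), and the call was lost without variant or typical immature replicate 3 (edgeR adjusted p of 0.0669 to 0.0728). The ratio of epoxidase to deepoxidase by summed FPKM was 0.678, 0.804 and 1.03 in variant young leaves, against 1.27, 1.32 and 1.59 in typical young leaves. It was 3.55, 3.55 and 3.99 in variant immature leaves, against 7.97, 8.12 and 7.86 in typical immature leaves. In the mature stage it was 6.34, 5.30 and 6.47 in variant mature leaves, against 9.76, 9.90 and 10.04 in typical mature leaves. The variant ratios lay below the typical ones without overlap at all 3 stages. No ratio of summed FPKM was tested, and no member was called in young leaves. At that stage 6 of 44 tested members lay apart as higher in the variant and 5 as lower.

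NEOXANTHIN-DEFICIENT 1, a protein needed for neoxanthin formation in tomato and Arabidopsis, had 2 genes that were both lower in variant immature leaves. Over all genes 23.1% were lower at that stage. PH02Gene01559 (scaffold 5, 40904277 to 40907505, minus strand) had 21.8, 21.4 and 23.3 FPKM in variant immature leaves, against 47.1, 71.6 and 53.1 FPKM in typical immature leaves (log2 fold change -1.82 ± 0.31, edgeR adjusted p = 2.53e-04). The groups were apart. In mature leaves it had 35.1, 41.2 and 16.5 FPKM in the variant, against 66.2, 45.7 and 43.1 FPKM in the typical plant (log2 fold change -1.07 ± 0.30, edgeR adjusted p = 0.0184), a call lost without typical mature replicate 1 (log2 fold change -0.78, edgeR adjusted p = 0.0828). PH02Gene14862 had 0.468, 0.417 and 0.852 FPKM in variant immature leaves, against 2.40, 2.56 and 3.29 FPKM in typical immature leaves, also apart (log2 fold change -2.69 ± 0.46, edgeR adjusted p = 2.62e-04). It was not called in mature leaves (log2 fold change -0.37 ± 0.43, edgeR adjusted p = 0.573).

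Cleavage genes included a pair that moved in opposite directions. The 9-cis-epoxycarotenoid dioxygenases cut violaxanthin and neoxanthin to xanthoxin, the committed step to abscisic acid. PH02Gene49504 (scaffold 12, 47171315 to 47173830, minus strand) had 6.04, 5.79 and 6.57 FPKM in variant immature leaves, against 0.147, 0.208 and 0.0669 FPKM in typical immature leaves. In counts these were 735, 676 and 838 in the variant and 22, 28 and 12 in the typical plant. It was far higher in the variant (log2 fold change 4.98 ± 0.70, edgeR adjusted p = 6.07e-05), but in mature leaves it had 0.116, 0.231 and 0.701 FPKM in the variant, against 0.343, 0.132 and 0.0452 FPKM in the typical plant, and was not called (log2 fold change 0.64 ± 0.64, edgeR adjusted p = 0.507).

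PH02Gene40492, described as NCED3, went the other way. It had 0.272, 0.384 and 0.587 FPKM in variant immature leaves, against 3.51, 2.94 and 2.97 FPKM in typical immature leaves, so that the typical plant was higher in every library (log2 fold change -3.34 ± 0.64, edgeR adjusted p = 6.81e-04). Of the summed 9-cis-epoxycarotenoid dioxygenase FPKM, PH02Gene49504 held 92.2% ± 0.856 in variant immature leaves and 3.97% ± 2.26 in typical immature leaves. PH02Gene40492 held 6.17% ± 2.04 in variant immature leaves and 87.5% ± 3.71 in typical immature leaves. In young leaves neither gene was called between the plant types (0.45 ± 0.58 and 0.37 ± 0.58 as log2 fold changes). Another tested gene, PH02Gene07581, stayed under 1 FPKM in every library and was not called.

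The 9,10-cleavage dioxygenases, which release ionones and related volatiles, had 3 well expressed genes, all lower in the variant at both older stages. Over all genes 23.1% were lower in immature and 9.65% in mature leaves. PH02Gene50958 (scaffold 18784, 324 to 1801, plus strand) had 12.2, 20.3 and 9.88 FPKM in variant immature leaves, against 49.2, 23.5 and 75.7 FPKM in typical immature leaves (log2 fold change -2.27 ± 0.38, edgeR adjusted p = 2.22e-04). Its values in mature leaves were 24.3, 31.0 and 24.7 FPKM in the variant, against 111, 79.9 and 87.3 FPKM in the typical plant (log2 fold change -2.13 ± 0.37, edgeR adjusted p = 0.00109). The variant libraries were lower than the typical ones at both stages.

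The other 2 of these genes behaved similarly. PH02Gene49300 had 17.04, 13.6 and 17.9 FPKM in variant immature leaves, against 34.5, 24.6 and 70.0 FPKM in typical immature leaves (log2 fold change -1.87 ± 0.29, edgeR adjusted p = 1.40e-04), and 20.9, 25.6 and 23.1 FPKM in variant mature leaves, against 79.6, 67.4 and 64.7 FPKM in typical mature leaves (log2 fold change -1.93 ± 0.29, edgeR adjusted p = 4.09e-04). PH02Gene41427 had 15.6, 16.7 and 15.4 FPKM in variant immature leaves, against 27.6, 18.8 and 45.9 FPKM in typical immature leaves (log2 fold change -1.41 ± 0.28, edgeR adjusted p = 9.31e-04), and 18.8, 22.3 and 20.5 FPKM in variant mature leaves, against 73.6, 51.6 and 44.1 FPKM in typical mature leaves (log2 fold change -1.80 ± 0.28, edgeR adjusted p = 5.34e-04). Neither overlapped between the plant types at either stage. A further pair, PH02Gene37481 and PH02Gene29907, stayed at or under 1.44 FPKM and was not called between the plant types.

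Zeaxanthin 7,8-cleavage dioxygenase, as the descriptions name it, had 2 genes that rose from stage to stage, and their activity was not examined. PH02Gene22046 (scaffold 17, 18283359 to 18286050, plus strand) had 1.37, 1.07 and 1.32, then 2.94, 4.27 and 3.69, then 63.8, 54.6 and 49.9 FPKM in young, immature and mature variant leaves. It had 2.01, 1.28 and 1.48, then 17.4, 13.4 and 21.7, then 92.1, 89.6 and 81.9 FPKM in young, immature and mature typical leaves. The variant was lower in immature (log2 fold change -2.72 ± 0.23, edgeR adjusted p = 7.40e-07) and in mature leaves (log2 fold change -0.97 ± 0.21, edgeR adjusted p = 0.00442), and both plant types rose between immature and mature leaves, by 3.99 ± 0.24 on the log2 scale for the variant and by 2.24 ± 0.22 for the typical plant. PH02Gene37228 had 0.458, 0.553 and 0.974 FPKM in variant immature leaves, against 2.23, 1.36 and 1.65 FPKM in typical immature leaves (log2 fold change -1.84 ± 0.63, edgeR adjusted p = 0.0271), a call lost without variant immature replicates 1 or 2 or typical immature replicate 1 (edgeR adjusted p of 0.0712 to 0.0955).

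The strigolactone genes come next. D27 isomerises beta-carotene and the cleavage dioxygenases 7 and 8 then turn it into carlactone. D27 gene PH02Gene12289 (scaffold 18, 12798926 to 12801191, plus strand) had 22.2, 21.5 and 22.5 FPKM in variant immature leaves, against 54.8, 48.5 and 78.7 FPKM in typical immature leaves (log2 fold change -1.92 ± 0.39, edgeR adjusted p = 0.00118). At the mature stage the gene had 30.0, 27.6 and 17.1 FPKM in the variant, against 96.9, 45.3 and 37.4 FPKM in the typical plant (log2 fold change -1.61 ± 0.39, edgeR adjusted p = 0.00807). The groups were apart at both stages, and without typical mature replicate 1, the highest, the mature difference was smaller (log2 fold change -0.997, edgeR adjusted p = 0.0466). The other tested D27 gene, PH02Gene04347, was at 16.5 ± 0.844 FPKM in variant immature leaves and 11.4 ± 1.78 FPKM in typical immature leaves and was not called (log2 fold change 0.08 ± 0.21, edgeR adjusted p = 0.804). Carotenoid cleavage dioxygenase 8, PH02Gene34618 (scaffold 16, 35370174 to 35389771, plus strand), had 1.37, 1.39 and 0.895 FPKM in variant immature leaves, against a listing at 0 in each of the 3 typical immature libraries. These were 148, 144 and 101 counts in variant immature leaves, the gene was higher in the variant (edgeR adjusted p = 7.40e-05), and no fold is given against 0. Mature leaves gave 0.459, 1.22 and 0.276 FPKM in the variant, against 0, 0 and 0.0459 FPKM in the typical plant, and the gene was again called higher (edgeR adjusted p = 0.00240). Dioxygenase 7 gene PH02Gene24269 had 0.0311, 0.303 and 0 FPKM in variant immature leaves, against 0.165, 0.333 and 0.135 FPKM in typical immature leaves, with overlap. The other gene, PH02Gene01973, lay at 0.269 to 0.418 FPKM in variant and 0 to 0.0582 FPKM in typical immature leaves. In young leaves it lay at 0.240 to 0.630 FPKM in the variant and 0.0490 to 0.107 FPKM in the typical plant. Although its ranges did not overlap at these 2 stages, both dioxygenase 7 genes stayed under 1 FPKM in every library. Neither was called between the plant types.

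**Figure D5:**
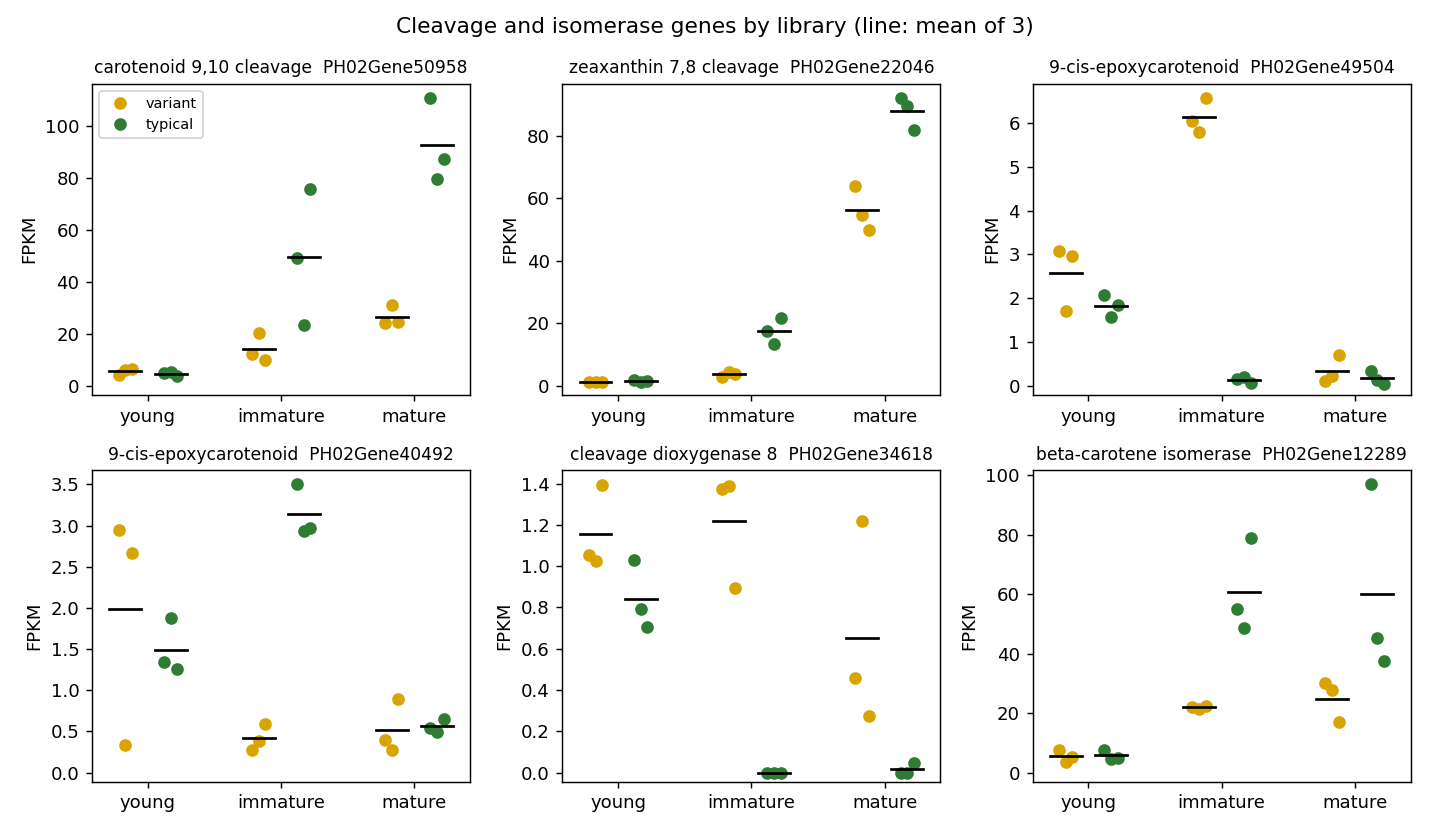
FPKM of 6 cleavage and isomerase genes in each library (points) with the mean of 3 (line), for variant and typical leaves at each stage. PH02Gene49504 is high only in variant immature leaves among the older stages, PH02Gene40492 is high in typical immature leaves, and PH02Gene34618 lies at or near 0 in typical immature and mature leaves.

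Over the stages of each plant type, fewer carotenoid genes were called as rising to the immature stage in the variant than in the typical plant. Between immature and young variant leaves 20 of 44 members rose and 2 fell, against 27.0% and 28.6% of all genes. Between immature and young typical leaves 29 rose and 2 fell, against 29.2% and 30.4% of all genes. The median log2 fold change of the members was 0.84 for the variant and 1.92 for the typical plant. Zeaxanthin epoxidase PH02Gene02171 rose in the variant (log2 fold change 3.35 ± 0.24, edgeR adjusted p = 7.14e-08) and in the typical plant (log2 fold change 4.27 ± 0.25, edgeR adjusted p = 4.92e-09), where its rise was the largest among members with a mean of at least 10 FPKM. The difference between its rises was -0.92 ± 0.31 (edgeR adjusted p = 0.0399), a call lost when near-alike libraries were summed and under limma. Shares of counts of other markers are given for the same stages. Those of dividing cells (18 genes) were 0.00886% to 0.0101% in immature and 0.0359% to 0.0822% in young variant leaves, and 0.00761% to 0.00850% in immature and 0.0670% to 0.0894% in young typical leaves. Those of xylem and fibres (50 genes) were 0.0388% to 0.0404% in immature and 0.110% to 0.159% in young variant leaves, and 0.0312% to 0.0795% in immature and 0.129% to 0.157% in young typical leaves. Those of growing walls (46 genes) were 0.0278% to 0.0298% in immature and 0.0743% to 0.108% in young variant leaves, and 0.00656% to 0.280% in immature and 0.0763% to 0.0882% in young typical leaves. No gene of these lists was at 0 in every library, and their part in the stage changes was not tested.

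The test of the difference between those rises, plant type by stage, called 22 members, 19 with a smaller rise or larger fall in the variant and 3 with the reverse, against 13.9% and 12.5% of all genes. They included phytoene synthase PH02Gene29430 at -3.35 ± 0.64 (edgeR adjusted p = 0.00163) and zeaxanthin epoxidase PH02Gene42507 at -2.37 ± 0.34 (edgeR adjusted p = 2.53e-04). The reverse direction was taken by zeta-carotene isomerase PH02Gene45013 at 1.02 ± 0.25, PH02Gene49504 at 4.53 ± 0.88 and carotenoid cleavage dioxygenase 8. When near-alike libraries were summed, 4 of the 22 were still called, namely PH02Gene42507, PH02Gene22046, PH02Gene49504 and PH02Gene34618. Between mature and immature leaves 5 members rose and 4 fell in the variant, against 15.8% and 11.6% of all genes, while 4 rose and 5 fell in the typical plant, against 13.2% and 16.2%. Of the 5 that rose in the variant, the 9,10-cleavage dioxygenase PH02Gene37481 had 16, 11 and 8 counts in variant mature leaves and 0 in every variant immature library. It passed the filter on low counts only through variant mature leaves, where it was high, and its call was lost under 17 alternatives. Without variant mature replicate 3 the variant count was 15, while calls over all genes moved from 10275 to 11668. Without typical immature replicate 1 the typical count was 5, while calls over all genes moved from 11058 to 8360. Limma on log2(FPKM + 1) without a filter gave 4 higher and 7 lower in the variant, and limma on log2(FPKM + 0.1) gave 6 higher and 4 lower in the typical plant. With near-alike libraries summed the counts were 2 for the variant and 4 for the typical plant. The difference between those changes called 6 members with a larger rise or smaller fall in the variant and 3 with the reverse, against 11.1% and 6.34% of all genes, and none was called once near-alike libraries were summed.

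Genes on either side of the carotenoid pathway were listed by the same kind of search. Of 23 tested genes for the precursors, the plastid route to isopentenyl diphosphate and geranylgeranyl diphosphate, 17 were lower and 1 higher in variant immature leaves, against 23.1% and 21.7% of all genes. In variant mature leaves 12 were lower and 2 higher, against 9.65% and 14.9% of all genes. None was called in young leaves. The median log2 fold change in immature leaves was -1.15, against -0.01 for all genes. The reductase that ends this route, PH02Gene06218, stood at 72.1 ± 4.03 FPKM in variant immature leaves and 294 ± 79.5 FPKM in typical immature leaves (log2 fold change -2.49 ± 0.27, edgeR adjusted p = 6.30e-06). The entry synthase PH02Gene22727 stood at 33.1 ± 0.522 FPKM in variant immature leaves and 110.1 ± 3.84 FPKM in typical immature leaves (log2 fold change -2.19 ± 0.23, edgeR adjusted p = 6.04e-06). Geranylgeranyl diphosphate synthase PH02Gene13327, which makes the direct substrate of phytoene synthase, was the 1 gene higher in the variant (log2 fold change 1.14 ± 0.43, edgeR adjusted p = 0.0419).

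Downstream of the xanthophylls, the abscisic acid receptors bind the hormone made from them. Of 8 tested receptors 5 were higher and none lower in variant immature leaves, against 21.7% and 23.1% of all genes. In variant mature leaves 4 were higher and none lower, against 14.9% and 9.65% of all genes. PH02Gene39314, described as PYL4, stood at 26.2 ± 2.05 FPKM in variant immature leaves and 1.05 ± 0.373 FPKM in typical immature leaves (log2 fold change 4.16 ± 0.31, edgeR adjusted p = 3.63e-07). PH02Gene16833, described as PYL9-like, stood at 33.8 ± 3.37 FPKM in variant immature leaves and 5.34 ± 1.08 FPKM in typical immature leaves (log2 fold change 2.21 ± 0.19, edgeR adjusted p = 8.17e-07). It was also called higher in variant young leaves (log2 fold change 1.22 ± 0.18, edgeR adjusted p = 0.0159).

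The other lists are read against the same shares of all genes, 23.1% lower and 21.7% higher in variant immature leaves and 9.65% lower and 14.9% higher in variant mature leaves. Of 9 tested genes for abscisic acid synthesis after xanthoxin and its breakdown, 1 was lower in variant immature leaves and 1 in variant mature leaves. Of 12 tested storage and turnover genes, 1 was higher and 4 were lower in variant immature leaves, and 2 were lower in variant mature leaves. All 3 genes described as LUTEIN DEFICIENT 5, P450 hydroxylases of carotenes, were lower in variant immature leaves, and in mature leaves 3 of the 4 tested P450 hydroxylases were lower and 1 was higher. Of 10 tested genes after carlactone and for strigolactone perception, 4 were higher and 2 lower in variant immature leaves, and 1 was higher in variant mature leaves.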

How the data were processed

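RNA of 18 leaf libraries in 6 groups was analysed from 1 table of the series. Per the file headers the authors deposited 2 values for each gene and library, an estimated count and an FPKM, which is scaled for gene length and library size. Cutadapt, FastQC and Salmon appear without versions in the submitters' processing notes. Sources used here do not state which genome build or annotation underlies the table. Coordinates are therefore the table's own, and gene names are its descriptions, taken from other species. Per the labels' protocols, cDNA was primed with oligo(dT) from very small RNA amounts and amplified by PCR, with no strand marking and no molecular identifiers described, so that counting error understates the true error.

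Estimated counts were rounded to whole numbers. In R 4.3.3, edgeR 4.0.16 fitted 6 group means over 18 libraries (12 residual degrees of freedom, TMM scaling, filterByExpr with count minimums of 10 and, summed, 15). The quasi-likelihood test was adjusted by Benjamini-Hochberg over 37595 genes, with 4925 left out, and calls were made at 0.05. The standard error of a log2 fold change is its absolute value over the square root of the F statistic of that test. TMM factors lay at 0.75 to 0.80 for typical immature leaves, 0.80 to 0.86 for typical mature leaves and 1.03 to 1.18 elsewhere. Alternatives used DESeq2 1.42.0, limma 3.58.1 on log2(FPKM + 1), other scalings and filters, summed or left-out libraries and a replicate block. Per-library levels are given for the highest member of each enzyme and for further members called in immature leaves with a mean of at least 1 FPKM. Others stand as means, ranges or counts, apart from PH02Gene18044, chosen after its values were seen. The members and lists were chosen with earlier results of these data known.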

Additional observations from a re-analysis of the deposited data

Results flagged for a closer look

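For 22 members the change between immature and young leaves differed between variant and typical leaves by the test of that difference itself (edgeR adjusted p of 0.000133 to 0.0399). A smaller rise or larger fall in the variant was seen in 19 and the reverse in 3, against 13.9% and 12.5% of all genes. Most of these calls were lost when near-alike libraries were summed. On the log2 scale, as variant minus typical, the phytoene synthases gave -3.35 for PH02Gene29430 and -2.16 for PH02Gene19716. Zeta-carotene desaturase PH02Gene31041 gave -2.12, prolycopene isomerase PH02Gene08847 gave -1.43 and lycopene epsilon cyclase PH02Gene28284 gave -2.07. The zeta-carotene isomerases parted, with -0.98 for PH02Gene08431 and 1.02 for PH02Gene45013. The beta-carotene hydroxylases gave -3.92 for PH02Gene22570, -1.95 for PH02Gene00881 and -1.13 for PH02Gene34591. The zeaxanthin epoxidases gave -2.37 for PH02Gene42507 and -0.92 for PH02Gene02171, and NEOXANTHIN-DEFICIENT 1 gave -2.72 for PH02Gene14862 and -1.70 for PH02Gene01559. The 9-cis-epoxycarotenoid dioxygenases also parted, with 4.53 for PH02Gene49504 and -3.71 for PH02Gene40492. The 9,10-cleavage dioxygenases gave -2.46 for PH02Gene50958, -2.07 for PH02Gene49300 and -1.51 for PH02Gene41427, the 7,8-cleavage dioxygenase PH02Gene22046 gave -2.34 and D27 gene PH02Gene12289 gave -1.81. Carotenoid cleavage dioxygenase 8, PH02Gene34618, was called with an edgeR adjusted p of 0.0009101, with no fold given because typical immature leaves were listed at 0. The calls of PH02Gene00881, PH02Gene02171, PH02Gene12289, PH02Gene28284 and PH02Gene08431 were each lost when 1 of 4 to 8 libraries was left out.

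For 9 members the change between mature and immature leaves differed between the plant types. The variant had the larger rise or smaller fall in 6 and the reverse in 3, against 11.1% and 6.34% of all genes. All of these calls were lost when near-alike libraries were summed. The values were 5.85 for phytoene synthase PH02Gene09283, 3.00 for PH02Gene31041, 2.87 for PH02Gene40492, 2.32 for PH02Gene14862, 1.75 for PH02Gene22046 and 1.72 for PH02Gene42507. They were -4.34 for PH02Gene49504, -1.25 for PH02Gene34591 and -0.82 for PH02Gene45013. Single libraries weighed on several of them. The value of PH02Gene09283 was 4.24 without typical immature replicate 1, 4.55 without variant mature replicate 3 and 6.66 without typical mature replicate 3. PH02Gene31041 had 2.26 without variant mature replicate 2, and PH02Gene49504 had -5.27 without variant mature replicate 3 and -3.39 without typical mature replicate 1. The calls of PH02Gene40492, PH02Gene45013 and PH02Gene14862 were lost without 7, 6 and 1 of the libraries, when left out 1 at a time.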

How the results depend on the processing

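Of 148 calls of a member in a comparison, 75 held under every alternative run, 73 were lost under at least 1, and none reversed. Summing near-alike libraries changed counts most, to 13 in immature leaves, 4 and 0 for the differences between plant types in the change to immature and to mature leaves, 2 between mature and immature variant leaves and 4 between those typical leaves. This setting leaves 14 libraries and so fewer residual degrees of freedom. It also called fewer of all genes in every comparison. With only the mature groups in the fit the mature count was 6, while calls over all genes fell from 9224 to 2641. Leaving out 1 library at a time gave 0 calls in young, 23 to 29 in immature and 13 to 19 in mature leaves between the plant types. Over all genes the same fits called 5 to 159 in young, 14336 to 18562 in immature and 6385 to 9829 in mature leaves. Between immature and young leaves, leaving 1 out gave 21 to 24 in the variant and 29 to 31 in the typical plant, with 17 to 24 for their difference. Over all genes these were 18185 to 22437, 20011 to 23637 and 7596 to 12017. Between mature and immature leaves, leaving 1 out gave 6 to 15 in the variant and 5 to 13 in the typical plant, with 7 to 13 for their difference. Over all genes these were 7377 to 11668, 8360 to 12900 and 4312 to 9941. Whether replicate numbers pair the samples is not settled. Of 45 pairs of same-numbered libraries, 12 had a correlation of deviations over 0.1 (range -0.31 to 0.42, median 0.002). The highest was between variant and typical young replicates 1. Libraries with different numbers were not compared, so this check cannot decide. With the replicate block the counts were 0 in young, 26 in immature and 18 in mature leaves, against 38, 16192 and 8295 over all genes. Between immature and young leaves they were 22 for the variant and 31 for the typical plant, against 20293 and 21912 over all genes. Between mature and immature leaves they were 8 for the variant and 7 for the typical plant, against 9601 and 10361. The differences in those changes gave 22 and 9, against 9299 and 5500. The lists of neighbouring genes were run with the settings of the report alone. Members with few reads, such as PH02Gene37481 with 0 to 16 counts per library, may differ in ways not detectable at this depth.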
